A study of Mus musculus with 15 samples.

Results

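The miRNAs mmu-miR-26a and mmu-miR-26b were followed in liver grafts of mice. They are 2 of the 567 mouse miRNAs on the array and 2 of the 103 that were tested. They were selected by name, and they were picked because the signal of miR-26b was low in allografts on day 14. The values of day 14 therefore chose the members, and they are given here as a description without a test.

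Livers of male B10.BR mice (H2-Kk) were transplanted orthotopically into allogeneic B10.D2 mice (H2-Kd), a combination in which the study gave no immunosuppressant. RNA of each whole graft was labeled with Cy3 and run on its own Agilent array of mouse miRNAs. The 15 arrays form 5 groups of 3: allografts on day 5, day 8, day 14 and day 100, and syngeneic grafts on day 5. The strain label of the syngeneic arrays names the allogeneic pair as well, so the identity of these 3 arrays comes from the sample titles, and their donor strain is not given in the sources used here. The ages of the mice are also not given there. There were no syngeneic grafts at the later days, so time after surgery and the allogeneic response cannot be told apart in the comparisons of day 8, day 14 and day 100 with the syngeneic grafts.

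MiRNAs are short RNAs that guide a silencing complex to messenger RNAs, chiefly by pairing of their seed, the bases 2 to 8 from the 5′ end. MiR-26a and miR-26b are abundant in many differentiated tissues, including the liver. They are known to repress the histone methyltransferase Ezh2 and several regulators of the cell cycle, and Myc is known to repress their transcription. Their genes lie in introns of the Ctdsp family of phosphatase genes, and each host gene is known to be transcribed together with its miRNA.

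The mature sequences show why the members are treated as a family and where they differ. Both members matched an entry in RefSeq (GRCm38.p6), and the capitals mark the seed.
miR-26a: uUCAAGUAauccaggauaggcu
miR-26b: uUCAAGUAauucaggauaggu
The seed is identical, and no other mature mouse miRNA of that RefSeq table carried it. Counted from 1 at the 5′ end, the bases differ by C11U and C21U from miR-26a to miR-26b, and miR-26a has 22 bases against 21. MiR-26a is made from 2 genes, Mir26a-1 within Ctdspl (mature strand at chr9:119031811-119031832, plus strand) and Mir26a-2 within Ctdsp2 (chr10:126995543-126995564, plus strand). The array cannot tell these genes apart, since their mature strands are the same. MiR-26b is made from Mir26b within Ctdsp1 (chr1:74394324-74394344, plus strand). With so close a pair, hybridization of a member to the probes of the other could contribute to either signal, and this was not tested.

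Each member was measured by 2 probes of 10 spots. Both members were well above background on all 15 arrays, and neither had a saturated spot. The array also carries the passenger strand of Mir26b, the strand that is usually degraded.
miR-26b*: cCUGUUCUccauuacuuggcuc
This strand was detected on 0 of 15 arrays, with intensities from -6.88 to 15.7, while the lowest signal of a detected miRNA was 18.6 at the median array. The passenger strands of miR-26a were looked for, and the names searched were not on the array.

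Detected miRNAs per array ranged from 60 to 115. Noise was largest for day 100, replicate 1: the software's additive error was 13.1 there and between 2.67 and 3.66 elsewhere. The arrays lay on 2 slides: slide 1 held syngeneic replicates 1 and 2 and the allografts of day 8 and day 14, and slide 2 held syngeneic replicate 3 and the allografts of day 5 and day 100. The number of arrays limits the precision of every value. Since whole tissue was measured, fewer cells of a type and less miRNA per cell cannot be told apart.

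Signals are given on the log2 scale relative to a reference level of the same array, the 75th percentile of the 52 miRNAs that every array detected, so a value of 0 equals that level. The log2 scaled signal of miR-26b was -0.82, -0.97 and -0.37 in the 3 syngeneic grafts. Allografts of day 5 had -0.94, -0.63 and -0.95. It was -0.75, -0.79 and -0.77 on day 8. The allografts of day 5 and day 8 lay within the range of the syngeneic grafts. On day 14 the signal was -1.42, -1.25 and -1.70. These 3 arrays were the lowest of all 15. The same held for let-7g, let-7f, miR-365, miR-148a and miR-194, which are described below. These 5 were picked for their likeness to miR-26b over arrays that include day 14, which favors miRNAs low on that day. The share of all miRNAs with day 14 lowest of all 15 arrays was not counted. Against single groups, the share with day 14 below all arrays was 21.4% to 27.2% of the 103 tested. On day 100 the signal of miR-26b was -0.52, -0.75 and -0.47, which was again within the syngeneic range.

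The log2 scaled signal of miR-26a was -0.65, -1.09 and -0.50 in the syngeneic grafts. Allografts had -0.97, -0.83 and -1.13 on day 5 and -0.66, -0.70 and -0.78 on day 8. No group stood apart from the syngeneic grafts, whose own arrays were spread the widest. On day 14 the signal of miR-26a was -0.92, -0.98 and -0.95, inside the range of the syngeneic grafts and of day 5. On day 100 it was -0.65, -0.90 and -0.57.

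**Figure D1:**
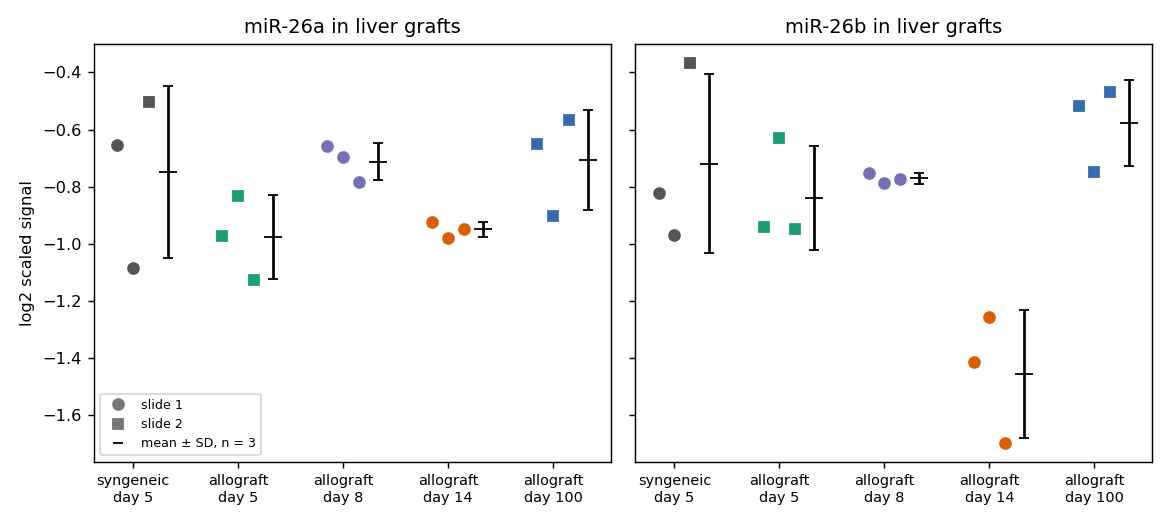
Log2 scaled signal (vertical axis) of miR-26a (left) and miR-26b (right) in the 5 groups; each point is 1 array, its shape gives the slide, and the bars are the mean ± SD (n = 3). The 3 arrays of day 14 are the lowest of all for miR-26b, from -1.70 to -1.25, and lie among the other arrays for miR-26a, from -0.98 to -0.92.

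By group mean, miR-26b was highest on day 100 at -0.58 ± 0.15 (SD, n = 3). It was followed by the syngeneic grafts at -0.72 ± 0.31, day 8 at -0.77 ± 0.02 and day 5 at -0.84 ± 0.18. The arrays of each neighboring pair among these 4 groups overlapped. Day 14 came last, at -1.46 ± 0.22, with a gap to the arrays of day 5. The means of miR-26a ran from -0.71 ± 0.18 on day 100 and -0.71 ± 0.07 on day 8 through -0.75 ± 0.30 in the syngeneic grafts to -0.95 ± 0.03 on day 14 and -0.98 ± 0.15 on day 5, and every neighboring pair overlapped.

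As a description, the mean of miR-26b on day 14 was lower by 1.67-fold than in the syngeneic grafts, a log2 difference of -0.74 ± 0.18 (SE). The difference was -0.62 ± 0.18 from day 5, -0.68 ± 0.18 from day 8 and -0.88 ± 0.18 from day 100. In all 4 comparisons the 3 arrays of day 14 lay below the 3 others. Of the 103 miRNAs tested, 21.4% were below all arrays in this way against the syngeneic grafts, 22.3% against day 5, 27.2% against day 8 and 25.2% against day 100. These comparisons share the arrays of day 14.

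For miR-26a the differences of day 14 were -0.20 ± 0.16 (SE) from the syngeneic grafts and 0.03 ± 0.16 from day 5, with overlapping arrays. They were -0.24 ± 0.16 from day 8 and -0.24 ± 0.16 from day 100. In these last comparisons the arrays of day 14 lay below those of the other group, as they did for miR-26b, but by a smaller amount.

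Among the comparisons of day 14, the one with day 8 is the one in which both groups lay on a single slide. There miR-26b was also lower before any scaling, with intensities of 308.1, 314.4 and 314.1 on day 14 against 426.6, 450.7 and 484.8 on day 8. The unscaled intensities of miR-26a were 433.0, 380.7 and 528.3 on day 14 and 455.5, 479.8 and 481.3 on day 8, and they overlapped. Against the syngeneic grafts, the low value of miR-26b on day 14 depended on the scaling. The unscaled intensities of miR-26b in the syngeneic grafts were 291.1, 201.9 and 477.6, and the log2 difference without scaling was 0.039 for miR-26b and 0.57 for miR-26a. Between these groups the median of all 103 miRNAs differed by 0.71 without scaling and by 0.07 with it.

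Within slide 1, the log2 difference of day 14 from the mean of the 2 syngeneic arrays was -0.56 for miR-26b and -0.08 for miR-26a. On day 8 the corresponding differences were 0.12 for miR-26b and 0.16 for miR-26a. Day 14 and the groups of slide 2 had only the syngeneic arrays to link them. With slide as a block the difference of miR-26b on day 14 was -0.087 ± 0.26 (SE) from day 5 and -0.35 ± 0.26 from day 100, and that of miR-26a was 0.39 ± 0.25 and 0.12 ± 0.25. The slide term of that fit rests on the 3 syngeneic arrays alone.

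The probes of a member gave similar differences. On day 14 the probes of miR-26b differed from the syngeneic mean by -0.76 and -0.72 on the log2 scale. The probes of miR-26a differed by -0.17 and -0.21. On day 100 the probes of miR-26b were at 0.09 and 0.17 and those of miR-26a at -0.05 and 0.08. Every spot set of both members was above background on each array, so the low value of miR-26b on day 14 was a measured level and not a bound.

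**Figure D2:**
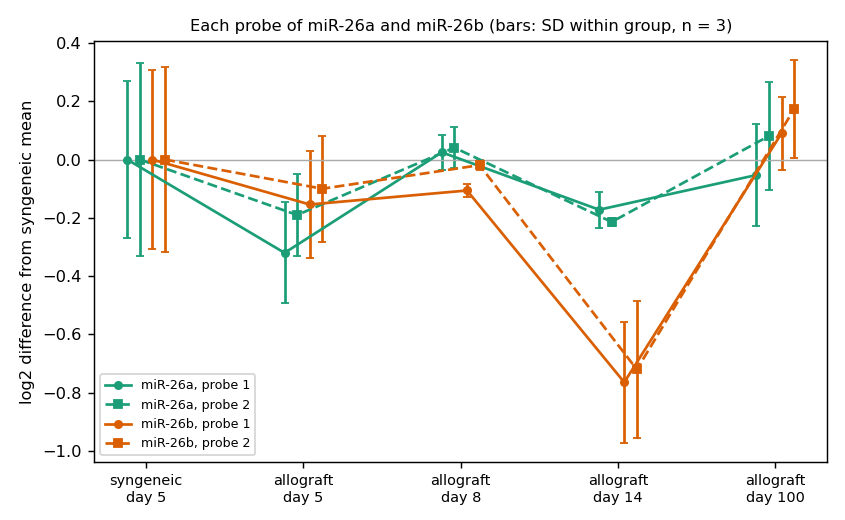
Log2 difference from the syngeneic mean (vertical axis) for each of the 2 probes of miR-26a and of miR-26b in the 5 groups; points are group means and bars the SD within the group (n = 3). Both probes of miR-26b are at their lowest on day 14, at -0.76 and -0.72, where the probes of miR-26a are at -0.17 and -0.21.

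To ask whether the members moved by the same amount, the log2 signal of miR-26a was subtracted from that of miR-26b on the same array, which removes the scaling. The level of this difference depends on the probes, so only its change between groups is read. It was -0.17, 0.12 and 0.14 in the syngeneic grafts. It was 0.03, 0.20 and 0.18 on day 5 and -0.10, -0.09 and 0.01 on day 8. On day 100 it was 0.14, 0.15 and 0.10. The 3 arrays of day 14 were at -0.49, -0.28 and -0.75, below every other array.

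The group mean of this within-array difference was 0.03 ± 0.17 (SD, n = 3) in the syngeneic grafts and -0.51 ± 0.24 on day 14, so miR-26b was lower relative to miR-26a by 0.53. In the other allografts the means were 0.14 ± 0.09 on day 5, -0.06 ± 0.06 on day 8 and 0.13 ± 0.03 on day 100. Over the 4 groups other than day 14, an exact permutation test of the F statistic gave p = 0.135 (12 arrays, F = 2.45), with a spread of 0.20 between the highest and the lowest mean. The groups on slide 2 were the high ones, and permuted within slides the exact p was 0.967. Day 8 lay only on slide 1, and day 5 and day 100 only on slide 2. Only the syngeneic arrays link the slides, so that permutation cannot tell slide and group apart. Without syngeneic replicate 1 the exact permutation p was 0.0349.

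**Figure D3:**
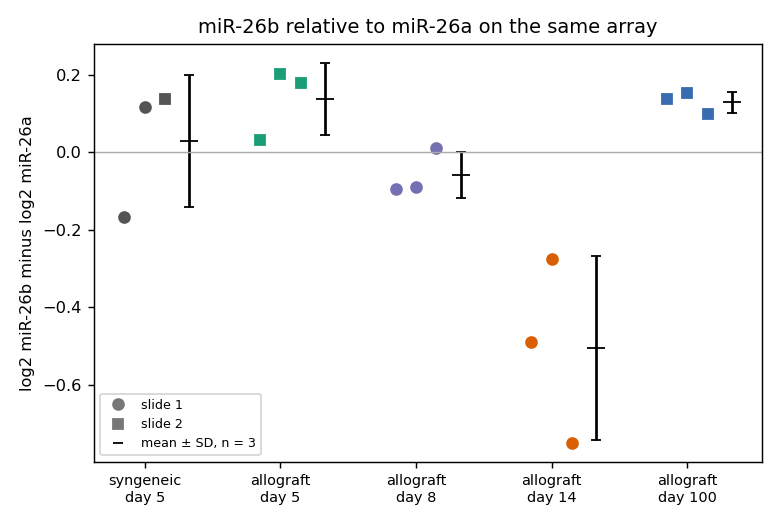
Log2 signal of miR-26b minus that of miR-26a on the same array (vertical axis) in the 5 groups; each point is 1 array, its shape gives the slide, and the bars are the mean ± SD (n = 3). The arrays of day 14, from -0.75 to -0.28, lie below all others, which run from -0.17 to 0.20.

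The groups other than day 14 were compared with limma, fitted to all 103 miRNAs with Benjamini-Hochberg adjustment. In the 5 comparisons of 2 members, 0 of 10 passed the threshold. The number was also 0 at an unadjusted p under 0.05 and 0 by the methods' t-test, without adjustment. Among all miRNAs tested, 25.2% passed on day 5, 40.8% on day 8 and 31.1% on day 100, each against the syngeneic grafts. The share was 29.1% for day 100 against day 5 and 19.4% for day 100 against day 8.

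On day 5, miR-26a differed from the syngeneic grafts by -0.23 on the log2 scale, with a 95% interval from -0.57 to 0.12 (adjusted p = 0.333, limma). MiR-26b differed by -0.12, from -0.50 to 0.26 (adjusted p = 0.645, limma). Within slide 2, which held a single syngeneic array, both members differed from it by -0.47 on day 5. On day 8 the differences were 0.03, from -0.31 to 0.38, for miR-26a (adjusted p = 0.911, limma) and -0.05, from -0.43 to 0.33, for miR-26b (adjusted p = 0.885, limma). Without syngeneic replicate 3 the difference of miR-26b on day 5 was 0.056. Without scaling, the differences were 0.31 and 0.42 on day 5 and 0.66 and 0.58 on day 8 for miR-26a and miR-26b. These intervals leave room for a change of either member in either direction.

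On day 100, miR-26a differed from the syngeneic grafts by 0.04, with a 95% interval from -0.30 to 0.39 (adjusted p = 0.897, limma). MiR-26b differed by 0.14, from -0.24 to 0.52 (adjusted p = 0.568, limma). The allografts of day 5 and day 100 lay on the same slide. Against day 5, day 100 was higher by 0.27, from -0.07 to 0.62, for miR-26a (adjusted p = 0.237, limma) and by 0.26, from -0.12 to 0.64, for miR-26b (adjusted p = 0.309, limma), and neither difference passed the test. Against day 8 the differences were 0.01, from -0.34 to 0.35, for miR-26a (adjusted p = 0.987, limma) and 0.19, from -0.19 to 0.58, for miR-26b (adjusted p = 0.432, limma). The 3 arrays of day 100 lay above the 3 of day 8 for miR-26b, as 18.4% of the miRNAs tested did, although these groups were on different slides. With slide as a block the sign turned: miR-26b on day 100 differed by -0.33 from day 8 and by -0.21 from the syngeneic grafts, and miR-26a by -0.36 and -0.20, and none of these passed the test. Without the noisier array of day 100, miR-26b differed by 0.11 from the syngeneic grafts and by 0.16 from day 8. The syngeneic arrays moved these values more: the difference of miR-26b on day 100 from the syngeneic grafts was 0.017 without syngeneic replicate 2 and 0.32 without replicate 3.

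**Figure D4:**
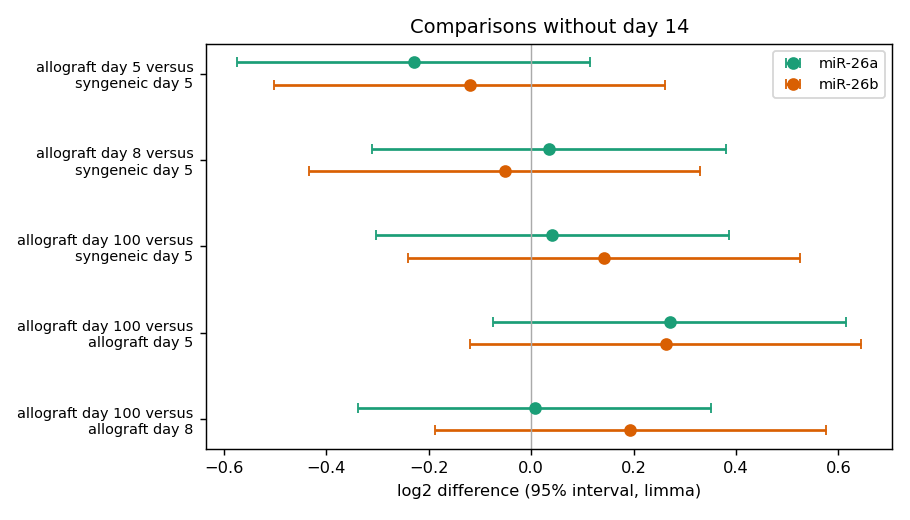
Log2 difference (horizontal axis) of miR-26a and miR-26b in the 5 comparisons without day 14; points are limma's estimates and bars the 95% intervals. All 10 intervals include 0, and the widest estimates are 0.27 for miR-26a and 0.26 for miR-26b, both between day 100 and day 5.

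Over the 15 arrays the members correlated with each other at Pearson's r = 0.66 and Spearman's rho = 0.79, and r was 0.65 without the 2 arrays farthest from the median of miR-26a. Within slides r was 0.63 (8 arrays of slide 1) and 0.97 (7 arrays of slide 2). The arrays share their scaling and group structure, so the values are descriptions. Deviations from the group means correlated at r = 0.73, so arrays of a group that were high for a member tended to be high for the other.

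The miRNAs most like miR-26b, among the 51 others detected on all arrays, were let-7g (r = 0.95), let-7f (r = 0.95), miR-365 (r = 0.88), miR-148a (r = 0.78) and miR-194 (r = 0.75). MiR-26a was number 15 in this order. For miR-26a they were miR-365 (r = 0.82), miR-29a (r = 0.78), let-7b (r = 0.74), miR-30c (r = 0.72) and miR-99a (r = 0.71), with miR-26b number 9. The median r over the 51 miRNAs was 0.31 for miR-26b and 0.24 for miR-26a. Spearman's rho with miR-26b was 0.90 for let-7g, 0.91 for let-7f and 0.90 for miR-365. It was 0.58 for miR-148a and 0.56 for miR-194, below the 0.79 of miR-26a.

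The order by r used the day 14 values that chose miR-26b, so miRNAs low on that day were favored. Deviations from the group means correlated with those of miR-26b at r = 0.877 for let-7g and 0.845 for let-7f. Let-7g and let-7f belong to the let-7 family, known for its rise during differentiation. These 2 are shown because they followed miR-26b closely and share no seed with it.
let-7g: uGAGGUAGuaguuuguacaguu
let-7f: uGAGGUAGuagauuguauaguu
From the syngeneic mean, let-7g differed on day 14 by -0.61, let-7f by -0.60 and miR-365 by -0.77 on the log2 scale. Other let-7 miRNAs followed less closely, with -0.38 for let-7b, -0.13 for let-7a and 0.28 for let-7d. MiR-26b differed by -0.74 and miR-26a by -0.20. On day 100 the differences were 0.07 for let-7g and 0.23 for let-7f, beside 0.14 for miR-26b. The share of G and C in the mature strand was 33.3% in miR-26b and 40.9% in miR-26a. In the 5 miRNAs most like miR-26b it was 36.4% in let-7g, 31.8% in let-7f and in miR-365, 40.9% in miR-148a and 45.5% in miR-194. Among 42 of the 52 always detected miRNAs that could be matched to a mature sequence, 2 had a lower share than miR-26b and 11 a lower share than miR-26a, and the median was 40.9%. A relation of base composition to the values was not tested.

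**Figure D5:**
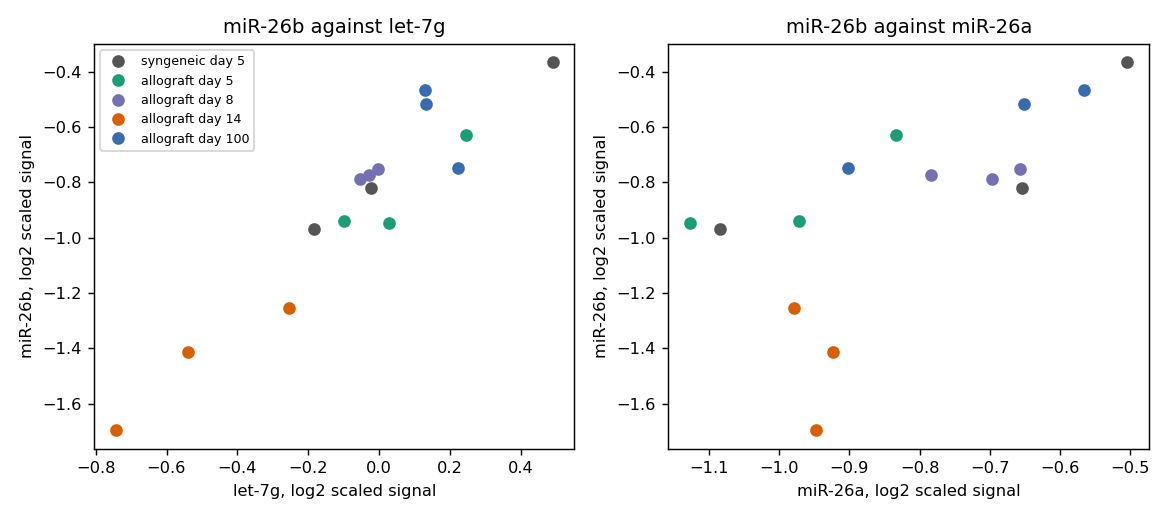
Log2 scaled signal of miR-26b (vertical axes) against that of let-7g (left) and miR-26a (right); each point is 1 of 15 arrays, colored by group. The arrays of day 14 continue the line of the other arrays against let-7g (r = 0.95) and fall below it against miR-26a (r = 0.66).

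Markers of cell types also differed between the groups. The study had selected miR-148a, miR-223 and miR-451 from these same arrays for their difference from the syngeneic grafts. Their p-values here are therefore no independent support. The hepatocyte miRNAs miR-122, miR-192, miR-194 and miR-148a were the 4 tested of a list of 5, and their summed scaled signal was 30.1 to 35.7 in the syngeneic grafts and 13.4 to 17.1 on day 14. All 4 fell on day 14 against the syngeneic grafts, where 18.4% of all miRNAs tested were lower, 27.2% were higher and 45.6% passed in either direction. They had log2 differences of -1.19 for miR-148a, -1.05 for miR-122, -0.99 for miR-194 and -0.97 for miR-192 (adjusted p = 7.87e-05 for each, limma). The median of the list was -1.02, against 0.07 for all miRNAs tested, and without scaling it was -0.25 with 0 of 4 called. On day 5, day 8 and day 100 their sums were 21.9 to 25.9, 22.9 to 24.7 and 23.3 to 27.8, with 3, 4 and 2 of 4 lower than in the syngeneic grafts, beside 6.8%, 17.5% and 14.6% of all miRNAs tested. With a single array left out these numbers went down to 0, 2 and 0, and the 4 of day 14 remained 4. Without scaling 0 of 4 were called on these days, and the medians of the list were 0.08, 0.18 and 0.16. On day 5, day 8 and day 100 the scaled sums were below those of every syngeneic graft. A relation of these sums to the signal of miR-26b was not tested.

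Of the leukocyte miRNAs, 5 of a list of 6 were tested. All 5 were higher on day 14 than in the syngeneic grafts, beside 27.2% of all miRNAs tested. The count was 3 of 5 with normexp background correction and went down to 4 with a single array left out. MiR-142-5p was detected on 13 arrays, miR-342-3p on 12 and miR-155 on 10. Testing required detection on all 3 arrays of a group, so these miRNAs could enter the list through the groups where they were high. Their summed scaled signal was 0.65 to 1.72 in the syngeneic grafts, 3.08 to 8.19 on day 5, 2.25 to 2.69 on day 8, 3.11 to 4.27 on day 14 and 1.15 to 1.53 on day 100. MiR-223, a miRNA of myeloid cells, was higher on day 14 by 2.38 (adjusted p = 7.89e-06, limma). The others were miR-342-3p, miR-142-5p, miR-155 and miR-142-3p, and the lymphocyte miRNA miR-150 was detected on 0 arrays. Of the erythroid list of 3, 2 were tested. MiR-451 rose on day 14 by 1.55 (adjusted p = 0.00232, limma). MiR-144, detected on 10 arrays only, differed by 0.01 ± 0.47 (SE). MiR-486 was detected on 1 array and was not tested. Of the endothelial and mesenchymal list of 8, only 3 were tested, and 0 of 3 passed on day 14. Of those not tested, miR-199a-5p was detected on 6 arrays, miR-143 on 5, miR-126-5p on 4 and miR-145 on 0. The name miR-199a-3p was not on the array. The part of a changed cell makeup in the values of miR-26a and miR-26b was not tested.

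Other lists hold miRNAs that share a known relation with the family. Of 5 miRNAs known to repress Ezh2, as miR-26a does, 3 were tested. The study had selected miR-101a and miR-101b from these same arrays for their difference from the syngeneic grafts. Their p-values here are therefore no independent support. MiR-101b fell by 2.00 (adjusted p = 4.41e-06, limma) and miR-101a by 1.45 (adjusted p = 0.000164, limma) on day 14 against the syngeneic grafts, whereas miR-214 was at 0.32, and without scaling 1 of the 3 passed. MiR-138 and miR-124 were detected on 0 arrays. Against the same syngeneic grafts, 1 of the 3 tested was lower on day 5 (6.8% of all miRNAs), 2 on day 8 (17.5%) and 2 on day 100 (14.6%), and without scaling the numbers were 0, 0 and 1.

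Of 17 miRNAs known to be repressed by Myc, as the miR-26 family is, 16 were tested. Among them, miR-146a and miR-34a had also been selected by the study from these same arrays, so their p-values are no independent support. On day 14 against the syngeneic grafts 4 were higher, 5 were lower and 7 did not pass the test, with a median of -0.10 against 0.07 for all miRNAs. Among all miRNAs tested in this comparison, 27.2% were higher, 18.4% were lower and 45.6% passed in either direction. Without scaling 5 were higher and 0 lower, with a median of 0.68, and the 75th percentile over all miRNAs left 2 higher and 2 lower. The largest changes were those of miR-146a (1.49, adjusted p = 8.15e-05, limma), miR-30e (-1.13, adjusted p = 0.00171), miR-34a (0.95, adjusted p = 0.0138) and miR-16 (0.89, adjusted p = 5e-04). Let-7g was among the 5 that fell (adjusted p = 0.0148, limma), while miR-30b and miR-30d, at 0.07 and -0.07, did not pass.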

How the data were processed

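Per the labels, total RNA of 15 liver grafts was hybridized in 1 color. The authors deposited an intensity for every spot, written by Feature Extraction 9.5.1.1, background-subtracted and not normalized between arrays. The deposited value table of the series was not used. Spots of a probe were averaged, leaving out outliers (0 to 3 of the 40 spots of the members per array), and probes of a miRNA were added up. Detection required 0.5 or more of a probe's spots to be well above background. Signals were scaled as described, floored at -5.21 (log2), which neither member reached, and tested where detected on all 3 arrays of a group. Means of 5 groups were fitted with limma (version 3.58.1, R 4.3.3), with p-values adjusted by the Benjamini-Hochberg method within a comparison and a threshold of 0.05. The fit was tested on simulated data without slides or scaling, with planted changes larger than any seen for the members. That test does not tell how well differences of the members' size are found. The within-array difference used exact enumeration in Python 3.11.15.

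The members and lists were chosen with earlier results of these data known. Named miRNAs are the members, their passenger strands where found on the array, and the 5 most like each by Pearson's r. From each list they are up to 4 called with the largest changes and up to 2 not called with the smallest. Let-7a and let-7d are named beside let-7g and let-7f. No 2 arrays held identical values. The labels state that 3 mice were taken per group, and do not state a shared batch for equal replicate numbers. Alternatives covered the scaling, the probe summary, normexp background correction (offset 50) on median signals, the filter, the arrays fitted, the test, slide or replicate number as a block, and each array left out in turn.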

Additional observations from a re-analysis of the deposited data

How the results depend on the processing

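In the 5 comparisons without day 14, neither member passed the threshold under any alternative, but several differences changed sign. Without scaling, those from the syngeneic grafts were 0.31 and 0.42 on day 5, 0.66 and 0.58 on day 8 and 0.60 and 0.70 on day 100 for miR-26a and miR-26b. With slide as a block, those of day 100 were -0.20 and -0.21 from the syngeneic grafts and -0.36 and -0.33 from day 8, and those of day 8 from the syngeneic grafts were 0.16 and 0.12. With each array left out, miR-26a ranged from -0.40 to -0.11 on day 5, -0.13 to 0.16 on day 8 and -0.13 to 0.16 on day 100 against the syngeneic grafts, and miR-26b from -0.25 to 0.056, -0.18 to 0.12 and 0.017 to 0.32. Without scaling between arrays, the day 14 difference from the syngeneic grafts turned to 0.57 for miR-26a and 0.039 for miR-26b, and the differences became 0.26 and -0.38 from day 5 and -0.027 and -0.66 from day 100 for miR-26a and miR-26b. With slide as a block they were 0.39 and -0.087 from day 5 and 0.12 and -0.35 from day 100. Median scaling gave -0.0060 for miR-26a and -0.45 for miR-26b from day 8. The brightest probe gave -0.19 for miR-26a from day 5, and the 75th percentile over all miRNAs gave -0.44 for miR-26a from day 100. The cause of these changes was not tested. With any 1 array left out, the difference of miR-26b on day 14 stayed between -0.86 and -0.56 from the syngeneic grafts and between -0.78 and -0.56 from day 8. The spread of the within-array difference over the 4 groups was 0.18 to 0.25 with each array left out (exact permutation p from 0.0349 to 0.272). It was 0.39 with quantile normalization (exact permutation p = 0.0571), 0.032 with slide as a block and 0.64 with day 14 included.

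Equal replicate numbers did not pair the arrays: their deviations correlated at -0.65 to 0.45, with 9 of 30 pairs above 0.1, and 2 of 15 arrays correlated best with their own number. With the replicate block, the differences of the members kept their values, no call of a member changed, and the exact permutation p of the within-array difference was 0.104.

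The number of miRNAs called, 26, 42 and 32 of 103 for day 5, day 8 and day 100 against the syngeneic grafts, ranged over the alternatives from 1 to 29, 18 to 48 and 1 to 43. It was 30 (5 to 38) for day 100 against day 5, 20 (1 to 45) for day 100 against day 8 and 47 (21 to 55) for day 14 against the syngeneic grafts. The percentages given beside the members move with it.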
